A study of Mus musculus with 12 samples.

Results

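The genes described here code for hyperpolarization-activated channels (*Hcn2*, *Hcn3* and *Hcn4*), for their partner *Pex5l*, and for potassium channels of the *Kcnh* family (*Kcnh1*, *Kcnh2*, *Kcnh3*, *Kcnh5* and *Kcnh7*). They were chosen by name through their Ensembl identifiers and not by a threshold on their measured values, although earlier results of these data were known. They make up 9 of the 37991 genes in the counts. The counts come from poly(A) RNA of whole hippocampi of 12 male mice of the C57BL/6N strain, 6 labelled Wildtype and 6 labelled Gadd45a-KO, which were siblings from crosses of heterozygotes. The labels give an age of 6 to 7 months, whereas the general methods of the study give a lower range for its mice. Every mouse had received the foot shock training of the passive avoidance (PA) test and was killed 1 h later, so no untrained group enters the comparison. In the knockout line the first 3 exons of *Gadd45a* were replaced by a neomycin cassette in the germline, and exon 4 remained. The comparison asks whether these channel mRNAs differ in the hippocampus between the labels shortly after aversive training.

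HCN channels open when a neuron hyperpolarizes and carry an inward current of sodium and potassium, which sets the resting potential and, in the dendrites of hippocampal pyramidal cells, shortens synaptic potentials. Cyclic AMP binds to them directly and eases their opening, and the protein of *Pex5l* (also called TRIP8b) binds their carboxy-terminal tail and controls how many reach the dendritic surface. The *Kcnh* genes code for depolarization-gated potassium channels of the ether-à-go-go (*Kcnh1*, *Kcnh5*), ERG (*Kcnh2*, *Kcnh7*) and ELK (*Kcnh3*) types. Despite their different gating, both families share a pore and an intracellular domain of the cyclic nucleotide-binding type, which in *Kcnh* channels does not bind cyclic nucleotides.

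The families are told apart at the selectivity filter of the pore. The coding strand around it is shown for 2 HCN and 5 *Kcnh* genes because this stretch both relates and separates the members. Capitals mark the 3 filter codons, for glycine, tyrosine and glycine in the HCN genes and for glycine, phenylalanine and glycine in the *Kcnh* genes.
Hcn3: atgctatgcattGGCTATGGGcagcaggca
Hcn4: atgctgtgcattGGGTATGGAcggcaggca
Kcnh1: ctcaccagtgtgGGCTTTGGTaacattgcc
Kcnh2: ctcaccagcgtgGGCTTTGGCaatgtctct
Kcnh3: ctcaccagtgtgGGCTTCGGCaacgtgtcc
Kcnh5: cttacaaccataGGATTTGGAaacatagct
Kcnh7: ctaaccagtgtaGGATTTGGAaatgtgtct

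These stretches lie in coding exons of the NCBIM37 genome. Those of the HCN genes are in exon 4 of 8, at chr3:88954919-88954948 on the minus strand for *Hcn3* and at chr9:58703386-58703415 on the plus strand for *Hcn4*. For the ether-à-go-go genes the stretch is in exon 7 of 11, at chr1:194161630-194161659 on the plus strand for *Kcnh1* and chr12:76188444-76188473 on the minus strand for *Kcnh5*. It is in exon 7 of 15 for *Kcnh2* (chr5:23831364-23831393, minus strand), in exon 8 of 16 for *Kcnh7* (chr2:62615391-62615420, minus strand) and in exon 8 of 15 for *Kcnh3* (chr15:99063354-99063383, plus strand). Between *Hcn3* and *Hcn4* 26 of the 30 bases were identical, between *Kcnh* genes 17 to 25, and between these HCN genes and the *Kcnh* genes 10 to 14. Over the longest coding transcript of each gene, the longest run shared by any pair of the 9 was 33 bases, between *Hcn2* and *Hcn3*. This is shorter than the reads of 51 bases. No exact read within these transcripts could therefore match that of another member. Among protein-coding transcripts of genes outside the set, 16.7% of the read-length words of *Hcn3* were shared with *Pklr*. That gene overlaps *Hcn3* on the opposite strand and had a median of 1 read. For *Kcnh7*, 5.81% were shared with other transcripts, *Gca* on the opposite strand included, which shares 696 nt of exon with it and had a median of 761 reads, and for the other 7 genes no word was shared. Reads were counted by strand.

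Between 44594261 and 55540601 reads per library fell on genes, and all 9 members were among the 16399 genes that passed the expression filter. The reads on *Gadd45a* (chromosome 6 from 66985090 to 66987451, minus strand) went against the labels, at 2.19 to 3.43 CPM (reads on the gene scaled to a common library size) in the libraries labelled Wildtype and 20.5 to 23.1 CPM in those labelled Gadd45a-KO, and the counts do not separate its remaining exon from the replaced ones. On the log2 scale the difference was 3.06 (SE 0.09, edgeR adjusted p = 1.33e-10). Libraries are therefore called by their labels, and each direction below is that of the labels. The libraries labelled Gadd45a-KO replicates 2 and 3 stood apart. All 13 thalamic marker genes were higher in both than in each of the other 10 libraries, with summed levels of 513 and 751 CPM against 170 to 229 CPM in Wildtype and 175 to 220 CPM in the other 4 libraries labelled Gadd45a-KO. *Tnnt1*, for example, was at 15.6 and 29.8 CPM against 1.12 to 1.83 CPM. None of the 13 markers passed 1% FDR between the labels, and 8 had an unadjusted p under 0.05. Markers of hippocampal principal neurons were present, with 10 genes summing to 1432 to 1538 CPM in Wildtype and to 1200 to 1467 CPM in Gadd45a-KO, and of these *Zbtb20* was lower at 1% FDR. The change of each of the 9 genes is given with and without the libraries of high thalamic markers.

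At 1% FDR, 0 of the 9 channel and partner genes passed in edgeR (quasi-likelihood test, p-values adjusted by Benjamini-Hochberg), where 2.65% of all tested genes passed, 2.62% as lower and 0.0244% as higher. At 5% FDR it was again 0 of the 9, beside 4.55% of all tested genes. DESeq2 called 0 of the 9 as well, beside 4.26% of all genes. At an unadjusted p under 0.05, *Pex5l*, *Kcnh5* and *Kcnh7* had lower values under the Gadd45a-KO label, which is 3 of 9 beside 9.35% of all genes, and 0 of 9 had higher ones, beside 4.34%. In either direction the background was 13.7%. The median log2 fold change was -0.0062 over the members and 0.0033 over all tested genes, with 5 members below 0 and 4 above. In none of the 9 genes were the libraries of the labels separated without overlap, as they were in 3.31% of all tested genes. Without Gadd45a-KO replicates 2 and 3, none of the 9 had an unadjusted p under 0.05, beside 9.23% of all genes tested in that fit. The lowest adjusted p in edgeR was 0.653, with fewer libraries compared. With the mean of the thalamic markers as a covariate over 12 libraries, *Kcnh7* alone had an unadjusted p under 0.05, beside 9.37% of all genes. That mean was 4.93 and 5.39 in Gadd45a-KO replicates 2 and 3 and 2.87 to 3.38 in the other 10 libraries. The covariate fit therefore rests largely on the same 2 libraries and is not a separate check. Since the samples are bulk tissue, fewer cells of a type and less RNA per cell cannot be told apart.

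**Figure D1:**
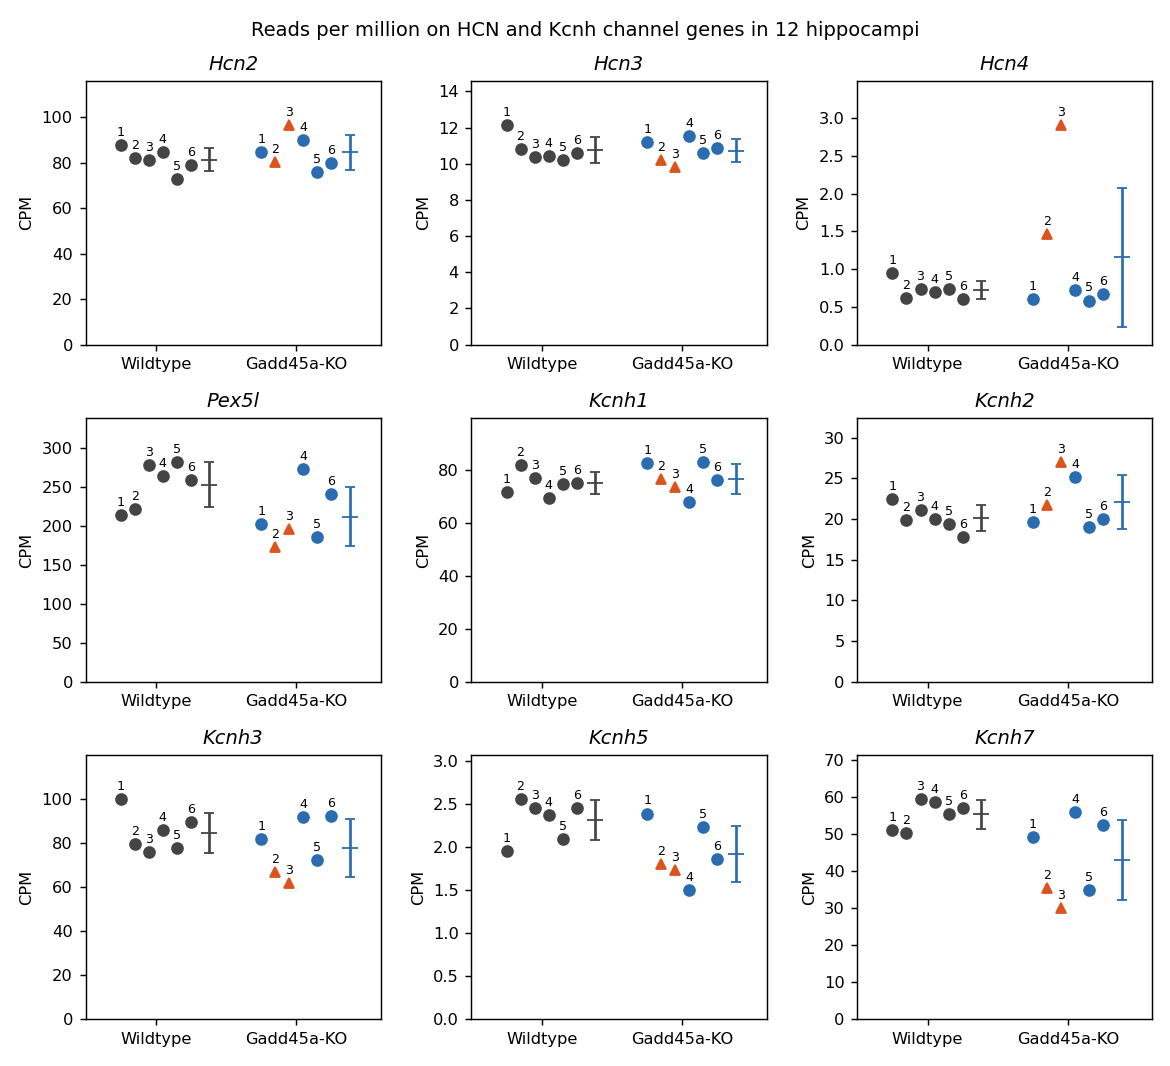
CPM (vertical axis from 0) for the 9 genes in each library, with replicate numbers beside the points and the mean ± SD (n = 6) to the right of each label. Triangles are Gadd45a-KO replicates 2 and 3, in which *Hcn4* reached 1.47 and 2.91 CPM while the other 10 libraries lay between 0.585 and 0.946 CPM.

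*Hcn2*, the more cyclic AMP-sensitive HCN gene widespread in brain, lies (ENSMUSG00000020331) on the plus strand of chromosome 10 (NCBIM37) from 79179379 to 79198853. In the libraries labelled Wildtype it ranged from 72.8 to 87.8 CPM with a median of 81.7 CPM. In those labelled Gadd45a-KO it ranged from 75.8 to 96.6 CPM with a median of 82.5 CPM. The ranges overlapped, and only replicates 3 and 4 labelled Gadd45a-KO were above every Wildtype library. On the log2 scale the difference, Gadd45a-KO minus Wildtype, was 0.06 (standard error, SE, 0.06, edgeR adjusted p = 0.770), with a 95% interval from -0.07 to 0.18, or 0.954-fold to 1.13-fold. Leaving out Gadd45a-KO replicates 2 and 3 gave 0.02.

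*Hcn3*, a slowly gating member that is little affected by cyclic AMP, lies (ENSMUSG00000028051) on the minus strand of chromosome 3 from 88949996 to 88964118. It ranged from 10.2 to 12.1 CPM in Wildtype (median 10.5 CPM) and from 9.83 to 11.6 CPM in Gadd45a-KO (median 10.7 CPM). The 2 values below every Wildtype library were those of Gadd45a-KO replicates 2 and 3. Among the 9 genes it had the smallest spread within labels, with an SD of 0.0883 on the log2 scale against a median of 0.116 over all tested genes. The change on the log2 scale was -0.0062 (SE 0.056, edgeR adjusted p = 0.981, 95% interval -0.13 to 0.11), and 0.040 without those libraries.

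*Hcn4*, the pacemaker gene of the sinoatrial node that is also strong in thalamic relay nuclei, lies (ENSMUSG00000032338) on the plus strand of chromosome 9 from 58671319 to 58708762. It had from 28 to 43 reads in the libraries labelled Wildtype, or 0.599 to 0.946 CPM with a median of 0.719 CPM. Under the Gadd45a-KO label, replicates 1 to 6 were at 0.608, 1.47, 2.91, 0.720, 0.585 and 0.665 CPM. Replicates 2 and 3 were thus above all Wildtype libraries, and the other 4 were within or below the Wildtype range. Of the 9 genes its spread within labels was the widest, with an SD of 0.656 on the log2 scale, in the 98.7th percentile of all tested genes. Between the labels the log2 difference was 0.68 (SE 0.38, edgeR adjusted p = 0.473, 95% interval -0.13 to 1.49).

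The *Hcn4* value turned with those libraries. With Gadd45a-KO replicates 2 and 3 left out the 4 remaining libraries had 0.644 ± 0.0606 CPM (SD, n = 4) against 0.725 ± 0.123 CPM (SD, n = 6) in Wildtype, and the log2 fold change was -0.17 (SE 0.16, edgeR adjusted p = 1.00). With the mean of the 13 thalamic markers as a covariate it was -0.14. Without replicate 3 alone it was 0.16.

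**Figure D2:**
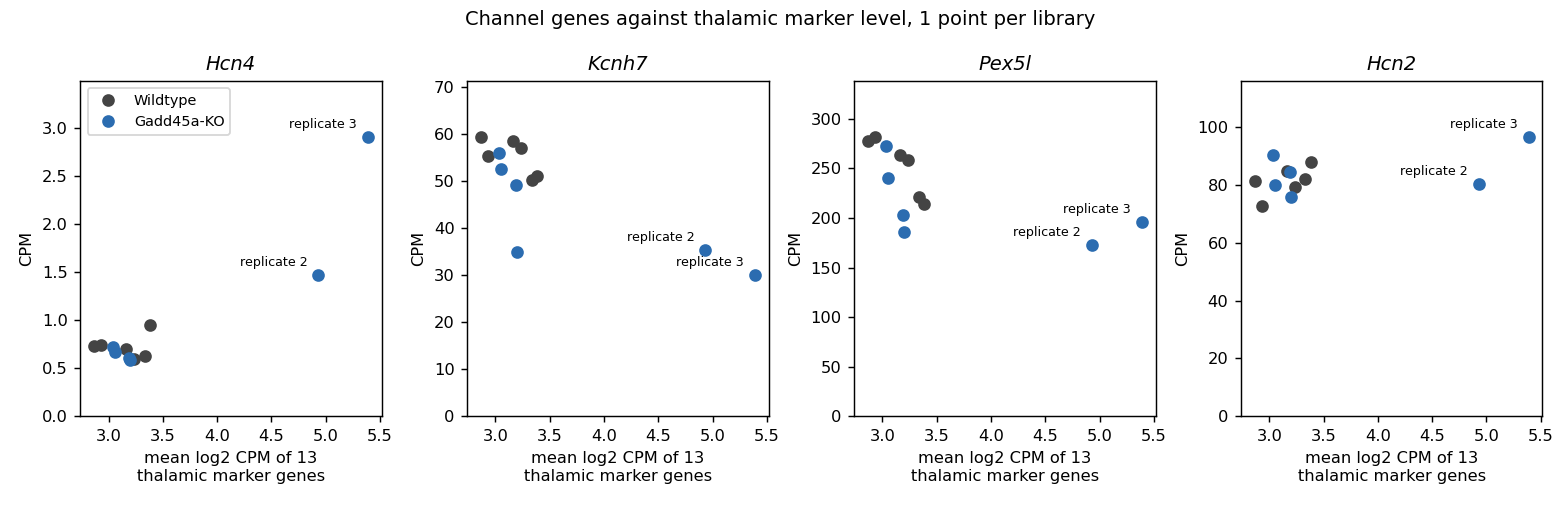
CPM of *Hcn4*, *Kcnh7*, *Pex5l* and *Hcn2* (vertical axes from 0) against the mean log2 CPM of the 13 thalamic marker genes, with each point a library. Gadd45a-KO replicates 2 and 3 lie at the right at 4.93 and 5.39, apart from the other 10 libraries at 2.87 to 3.38, and are highest for *Hcn4*.

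*Pex5l*, which codes for the auxiliary subunit of HCN channels, lies (ENSMUSG00000027674) on the minus strand of chromosome 3 from 32848553 to 33042169. In Wildtype it ranged from 214 to 282 CPM with a median of 261 CPM. In Gadd45a-KO it ranged from 172 to 273 CPM with a median of 199 CPM. Replicates 1, 2, 3 and 5 labelled Gadd45a-KO were below every Wildtype library, whereas replicate 4 lay near the Wildtype maximum. The means were 253 ± 28.8 CPM and 212 ± 37.8 CPM (SD, n = 6 each), and the log2 fold change of -0.26 (SE 0.11) had an adjusted p of 0.282 from edgeR and an unadjusted p of 0.0292. In the 10 libraries without high thalamic markers it was -0.17 (SE 0.11, edgeR adjusted p = 0.854). Leaving out 1 library at a time gave -0.34 to -0.19, the lowest without Gadd45a-KO replicate 4 (SE 0.09, edgeR adjusted p = 0.0537).

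*Kcnh1* (Kv10.1) and *Kcnh5* (Kv10.2) code for the ether-à-go-go channels, which activate at a pace that depends on the preceding potential. *Kcnh1* lies (ENSMUSG00000058248) on the plus strand of chromosome 1 from 194014666 to 194334041. It ranged from 69.6 to 81.7 CPM in Wildtype (median 74.9 CPM) and from 68.0 to 83.0 CPM in Gadd45a-KO (median 76.5 CPM), so that the ranges nearly coincided. On the log2 scale the difference, Gadd45a-KO minus Wildtype, was 0.03 (SE 0.05, edgeR adjusted p = 0.873, 95% interval -0.08 to 0.14), and 0.05 without Gadd45a-KO replicates 2 and 3.

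*Kcnh5* lies (ENSMUSG00000034402) on the minus strand of chromosome 12 from 75998204 to 76278319. It ranged from 1.96 to 2.56 CPM in Wildtype (median 2.42 CPM) and from 1.50 to 2.39 CPM in Gadd45a-KO (median 1.83 CPM), from 73 to 134 reads per library. Replicates 2, 3, 4 and 6 labelled Gadd45a-KO were below every Wildtype library, replicate 4 being the lowest. The log2 fold change of -0.27 (SE 0.12, 95% interval -0.52 to -0.02) did not pass, with an adjusted p of 0.310 from edgeR and an unadjusted p of 0.0357. Without Gadd45a-KO replicates 2 and 3 it was -0.22 (SE 0.13, edgeR adjusted p = 0.823).

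*Kcnh2* (Kv11.1, the ERG channel that repolarizes the cardiac action potential) lies (ENSMUSG00000038319) on the minus strand of chromosome 5 from 23825407 to 23857422. It ranged from 17.8 to 22.5 CPM in Wildtype (median 19.9 CPM) and from 19.0 to 27.0 CPM in Gadd45a-KO (median 20.9 CPM). Replicates 3 and 4 labelled Gadd45a-KO were above every Wildtype library. The change on the log2 scale was 0.14 (SE 0.09, edgeR adjusted p = 0.551, 95% interval -0.05 to 0.32), and 0.06 (edgeR adjusted p = 1.00) without Gadd45a-KO replicates 2 and 3.

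*Kcnh7* (Kv11.3), a neuronal ERG channel, lies (ENSMUSG00000059742) on the minus strand of chromosome 2 from 62531471 to 63022344. It ranged from 50.2 to 59.4 CPM in Wildtype, with a median of 56.2 CPM. Under the other label, replicates 1 to 6 were at 49.2, 35.4, 30.0, 55.9, 35.0 and 52.5 CPM. Replicates 2, 3 and 5 lay far below the Wildtype range, replicate 1 just below it, and replicates 4 and 6 inside it. Between the labels the log2 difference was -0.36 (SE 0.13, 95% interval -0.65 to -0.08), the lowest of the 9 genes, with an unadjusted p of 0.0158 and an adjusted p of 0.196 from edgeR. With Gadd45a-KO replicates 2 and 3 left out it was -0.20 (SE 0.10, edgeR adjusted p = 0.653), with 48.2 ± 9.22 CPM (SD, n = 4) left in that group. With the thalamic marker mean as a covariate over 12 libraries it was also -0.20 (SE 0.09, edgeR unadjusted p = 0.0453, adjusted p = 0.510). Leaving out 1 library at a time gave -0.44 to -0.27, the lowest without Gadd45a-KO replicate 4 (SE 0.12, edgeR adjusted p = 0.0654). Replicate 5, the second lowest for *Kcnh7*, had a thalamic marker sum of 209 CPM, inside the Wildtype range. The summed markers of hippocampal principal neurons, *Zbtb20* included, were lowest in the same replicates 2, 3 and 5, at 1267, 1200 and 1239 CPM. Summed pan-neuronal markers were not low in these replicates, at 4611, 4999 and 4725 CPM against 4011 to 4950 CPM in Wildtype. The part of either marker list in the *Kcnh7* values was not tested.

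*Kcnh3* (Kv12.2), an ELK channel of forebrain neurons, lies (ENSMUSG00000037579) on the plus strand of chromosome 15 from 99055292 to 99073248. It ranged from 75.9 to 99.9 CPM in Wildtype (median 82.6 CPM) and from 61.8 to 92.3 CPM in Gadd45a-KO (median 76.8 CPM). Gadd45a-KO replicates 2 and 3, at 66.6 and 61.8 CPM, were below each of the other 10 libraries. On the log2 scale the difference, Gadd45a-KO minus Wildtype, was -0.12 (SE 0.10, edgeR adjusted p = 0.686, 95% interval -0.34 to 0.09), and -0.0025 without those libraries.

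**Figure D3:**
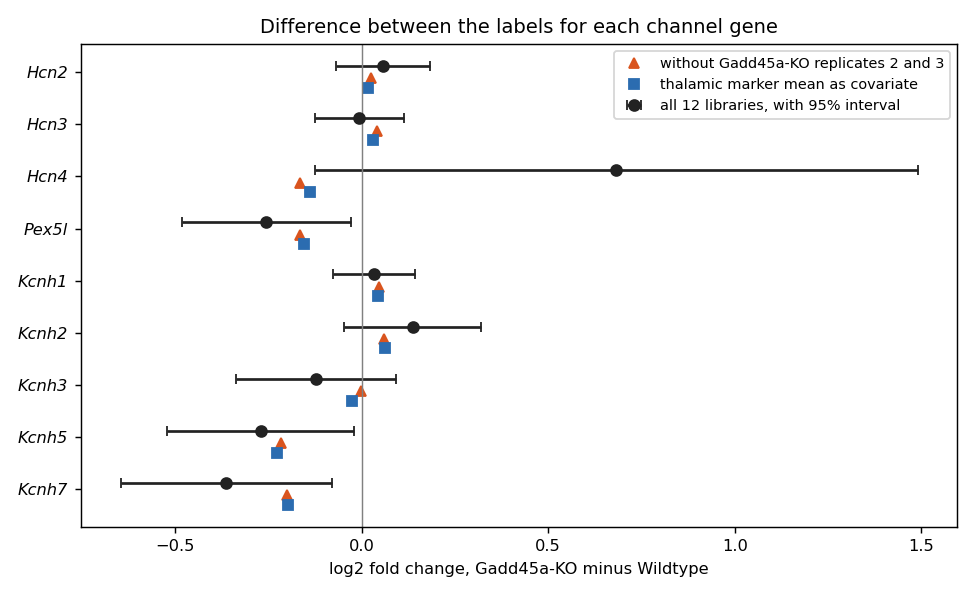
Log2 fold change of CPM, Gadd45a-KO minus Wildtype, for each gene (horizontal axis). Circles with bars are the edgeR values over 12 libraries with their unadjusted 95% intervals, triangles the values without Gadd45a-KO replicates 2 and 3, and squares those with the thalamic marker mean as covariate. *Hcn4* goes from 0.68 to -0.17 and -0.14.

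Annotated transcripts of the members differ in their 3′UTR, a feature the study examined. The longest coding transcript of *Kcnh7* has 13321 nt with a 3′UTR of 9532 nt, and that of *Kcnh1* has 7232 nt with 4038 nt. In the other 7 genes the annotated 3′UTR was between 192 nt (*Hcn4*) and 1525 nt (*Hcn3*). The log2 fold changes of the genes with the longest 3′UTRs were -0.36 for *Kcnh7* and 0.03 for *Kcnh1*. With a smooth offset for transcript length these values became -0.19 (edgeR adjusted p = 0.672) and 0.11 (edgeR adjusted p = 0.335). Under that offset *Pex5l*, *Kcnh5* and *Kcnh1* had an unadjusted p under 0.05, *Kcnh1* as higher, beside 13.4% of all tested genes. *Kcnh7* did not. Extensions beyond the annotated ends were not analysed here.

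Scaled to annotated exon length, the levels differed widely in the libraries labelled Wildtype. *Pex5l* was highest, with a median of 51.8 CPM per kb, and did not overlap the next genes. *Hcn2* (25.6 CPM per kb) and *Kcnh3* (22.3 CPM per kb) overlapped each other and were followed by *Kcnh1* (10.2 CPM per kb). *Kcnh2* (4.11 CPM per kb) and *Kcnh7* (3.69 CPM per kb) overlapped as well, above *Hcn3* (2.53 CPM per kb). *Kcnh5* (0.596 CPM per kb) and *Hcn4* (0.189 CPM per kb) were lowest. Of the sum over all *Kcnh* genes, *Kcnh3* made up 49.7 to 56.5% in Wildtype and 46.1 to 55.3% in Gadd45a-KO. These shares are descriptions and were not tested. The exon length was that of all annotated exons of a gene, 15226 nt for *Kcnh7* and 5039 nt for *Pex5l*, whose longest transcript has 3164 nt. The study reports read density biased towards the 3′ end of transcripts, so the order of genes may depend on this choice of length.

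**Figure D4:**
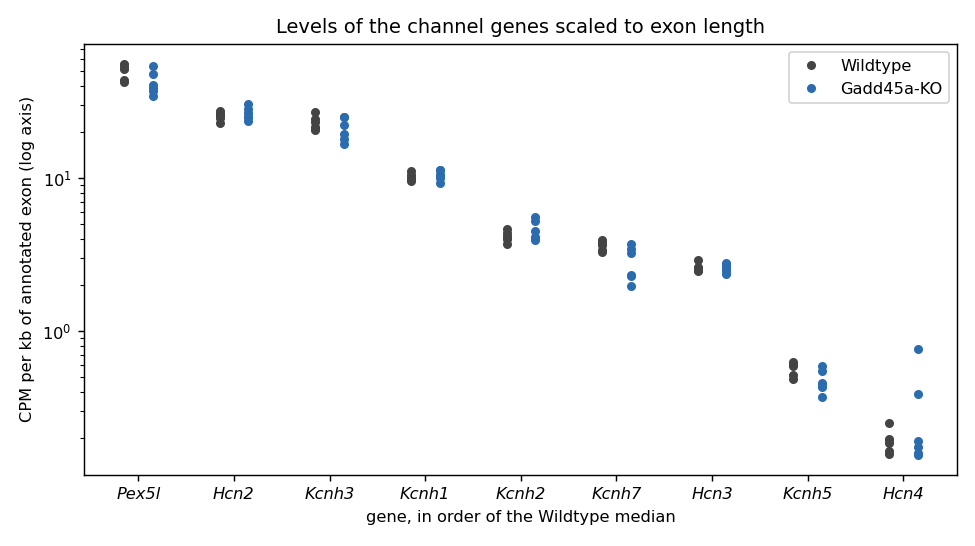
CPM per kb of annotated exon (log axis) for the 9 genes in every library, ordered by the Wildtype median from *Pex5l* (51.8) to *Hcn4* (0.189). Within *Hcn4* the 2 highest Gadd45a-KO points are replicates 3 and 2.

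Pairs of members deviated from their label means both together and in opposite directions. After the mean of each label was taken off the log2 CPM, Pearson's r over the 12 libraries was 0.84 between *Hcn3* and *Kcnh3*, 0.83 between *Kcnh1* and *Kcnh5*, 0.82 between *Hcn2* and *Kcnh2*, and 0.77 between *Pex5l* and *Kcnh7*. In the opposite direction, r was -0.71 between *Kcnh2* and *Kcnh5* and -0.68 between *Hcn4* and *Kcnh7*. In the 10 libraries without high thalamic markers the first 4 pairs had r of 0.77, 0.83, 0.74 and 0.82, while that of *Hcn4* and *Kcnh7* was -0.26. The points share library depth, RNA preparation and dissection, and the values are given as descriptions without a test.

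**Figure D5:**
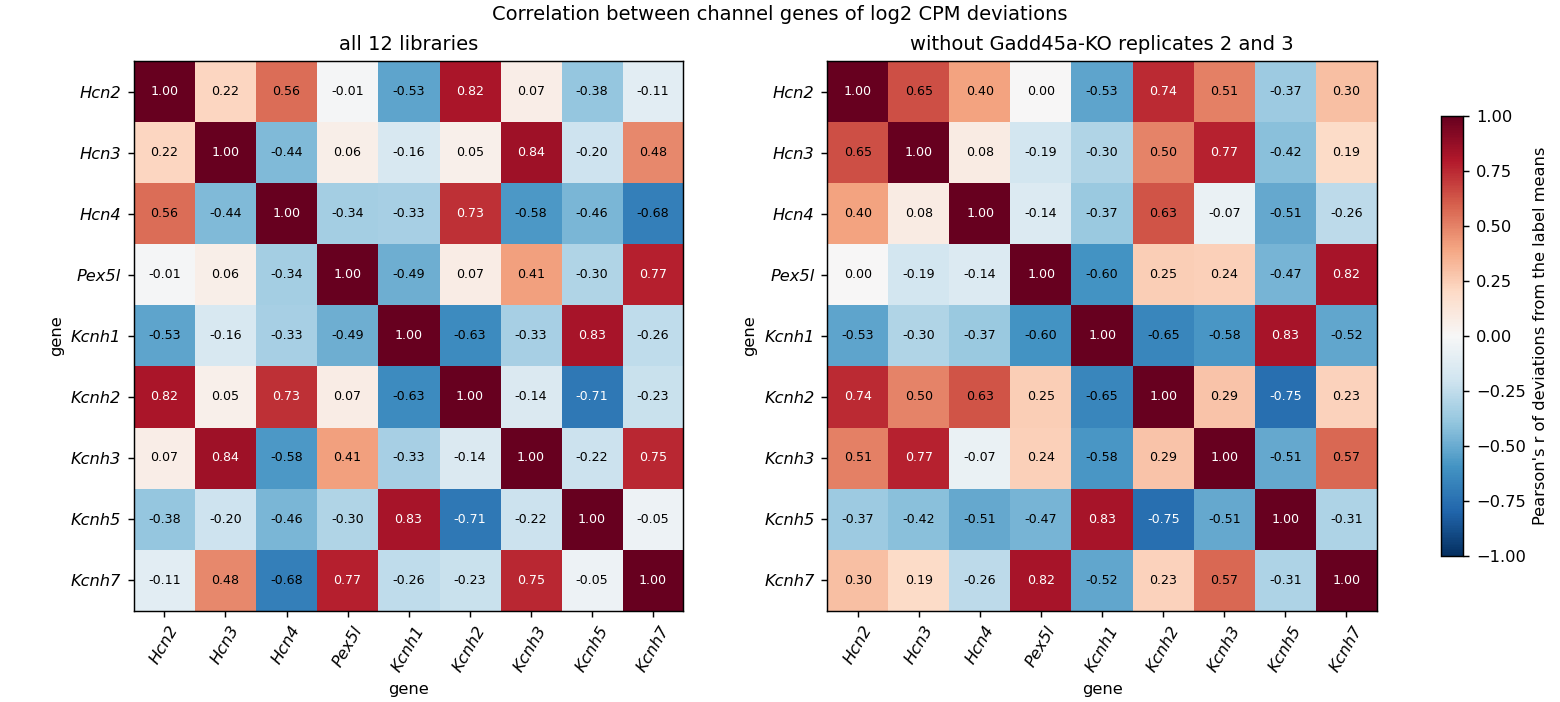
Pearson's r between the 9 genes of log2 CPM deviations from the label means, over 12 libraries on the left and over 10 on the right, with colour running from -1 (blue) to 1 (red). The pair *Kcnh1* and *Kcnh5* is at 0.83 on both sides, whereas *Hcn4* and *Kcnh7* go from -0.68 to -0.26.

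The genes whose deviations were most like those of a member, by the same measure over all tested genes and 12 libraries, were the following. For *Hcn2* they were *Olig1* (r = 0.97), *Rtkn* (r = 0.96) and *Zfp628* (r = 0.95). Summed oligodendrocyte markers were 6653 CPM in Gadd45a-KO replicate 3 and 2111 to 3425 CPM in the other 11 libraries. In that replicate *Hcn2* and the thalamic markers were also highest. Gadd45a-KO replicate 4, next highest for *Hcn2* at 90.1 CPM, had an oligodendrocyte sum of 2721 CPM. Without Gadd45a-KO replicates 2 and 3 the r of *Hcn2* with *Olig1* was 0.95. The part of oligodendrocyte markers in the *Hcn2* values was not tested. For *Hcn3* the nearest genes were *Spnb4* (0.98), *Unc5a* (0.97) and *Speg* (0.96), and for *Hcn4* *Epn3* (0.97), *Rab37* (0.96) and *Epha8* (0.96). For *Pex5l* they were *Adam12* (0.95), *Cd34* (0.95) and *Reps1* (0.94). *Kcnh7* was nearest to *Penk* (0.96), *2610039C10Rik* (0.96) and *Tbc1d1* (0.95), and *Kcnh3* to *Syt5*, *Car11* and *Usp21* (0.95 to 0.96). *Kcnh1* was nearest to *Zfp26*, *Fbxw11* and *Pcdh20* (all 0.94), of which *Zfp26* was lower at 1% FDR. *Kcnh2* was nearest to *Xylt2* (0.96), *Rab11fip5* (0.92) and *Tubb3* (0.91), and *Kcnh5* to *Taf5l* (0.92), *Plekhg4* (0.91) and *Atf6* (0.90). These genes were the top of a search over all tested genes, so that their r is a description of these libraries.

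The other *Kcnh* genes that were tested, *Kcnh4*, *Kcnh6* and *Kcnh8*, did not pass 1% FDR either. *Kcnh4* and *Kcnh8* code for ELK channels and *Kcnh6* for an ERG channel. *Kcnh4* ranged from 2.63 to 5.54 CPM in Wildtype (median 4.30 CPM) and from 2.93 to 4.59 CPM in Gadd45a-KO (median 3.56 CPM), so that the ranges overlapped. Its difference on the log2 scale was -0.22 (SE 0.16, edgeR adjusted p = 0.634). *Kcnh6* was at -0.0103 (edgeR adjusted p = 0.986), and *Kcnh8*, listed under 2 identifiers with at most 16 and 22 reads per library, at -0.16 and -0.19 (edgeR adjusted p = 0.900 and 0.797). Of 6 cyclic nucleotide-gated channel genes, relatives of HCN channels, 3 were expressed enough to be tested and 0 passed.

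Among 13 tested genes whose proteins bind or accompany these channels, 1 was lower and 0 were higher at 1% FDR, beside 2.62% and 0.0244% of all tested genes, with a median log2 fold change of 0.04. The lower gene was *Alg10b* (ENSMUSG00000075470, chromosome 15 from 90054742 to 90060985, plus strand), which codes for a glucosyltransferase of the endoplasmic reticulum also known as KCR1, a regulator of the *Kcnh2* channel. It ranged from 27.0 to 30.9 CPM in the libraries labelled Wildtype (median 30.0 CPM) and from 16.2 to 20.6 CPM in those labelled Gadd45a-KO (median 17.7 CPM). Every Gadd45a-KO library was below every Wildtype library. The change on the log2 scale was -0.71 (SE 0.06, edgeR adjusted p = 3.35e-06), and -0.70 (edgeR adjusted p = 6.15e-05) without Gadd45a-KO replicates 2 and 3, in which the thalamic markers were high. *Mrvi1*, which codes for a substrate of cyclic GMP-dependent kinase, did not pass, with a log2 fold change of 0.96 (SE 0.32, edgeR adjusted p = 0.142) that was 0.32 without those libraries. *Kcne1* and *Kcne2*, which code for accessory subunits, had 0 to 3 and 3 to 16 reads per library and were not tested.

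Of the other voltage-gated potassium channel genes (30 tested of 33), 3 were lower and 0 higher at 1% FDR, beside 2.62% and 0.0244% of all tested genes, and their median log2 fold change was -0.06. These were *Kcna3* at -2.26 (SE 0.20, edgeR adjusted p = 1.45e-05), *Kcng3* at -1.27 (SE 0.25, edgeR adjusted p = 0.00722) and *Kcnq3* at -1.16 (SE 0.18, edgeR adjusted p = 0.00115). Without Gadd45a-KO replicates 2 and 3, *Kcng3* was at -1.01 and no longer passed (edgeR adjusted p = 0.0366), nor did it when any of 9 single libraries was left out (edgeR adjusted p up to 0.0255), with values of -1.42 to -1.13 over all single libraries left out. *Kcna3* at -2.15 (edgeR adjusted p = 0.000165) and *Kcnq3* at -0.99 (edgeR adjusted p = 0.00611) still passed without those 2 libraries. The 95% intervals of the 9 channel and partner genes reached no lower than -0.65, so that falls of the size of these 3 were outside them. No difference in frequency of calls between the lists was tested.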

How the data were processed

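The members, lists and tests were chosen with earlier results of these data known. Per the labels, poly(A) RNA was made into stranded libraries. The authors aligned single reads of 51 bases with TopHat 1.4.1 to NCBIM37 (mm9), allowing up to 5 alignments, and deposited raw counts per Ensembl release 66 gene, 1 table per library, made by HTSeq 0.5.4p3 by strand. Symbols and positions came from GENCODE gene models of the same build (Ensembl release 65), which matched 37205 of 37991 identifiers. Rows that name no gene (reads outside genes, ambiguous, or not aligned uniquely) held 24.1 to 26.3% of the summed counts per library and were left out.

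The counts were tested as deposited with edgeR 4.0.16 in R 4.3.3 (TMM scaling, filterByExpr, quasi-likelihood test, 6 against 6 libraries, label as only term), and p-values were adjusted by Benjamini-Hochberg over all 16399 tested genes at 1% FDR. CPM used TMM library sizes, and CPM per kb the annotated exon length. Correlations used log2 CPM with a prior count of 2. All 9 members were named, besides the tested list genes that passed 1% FDR and some list genes that did not. The fit was checked on simulated counts. DESeq2 1.42.0, other scaling and filters, a length offset (spline with 5 degrees of freedom), a replicate block, a thalamic covariate and leaving out libraries were alternatives, and leaving out the libraries of high thalamic markers was chosen after seeing the data. The smallest difference between replicates of a label exceeded sampling noise (chi-square per degree of freedom 9.12), so each library counted once. The labels call the samples 6 mice per genotype. Some related items are not reported here.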

Additional observations from a re-analysis of the deposited data

Results flagged for a closer look

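Over 32 groups of 6 libraries examined for a library far from its group, 1 was found, where 1.6 would be by chance. *Hcn3* was at 12.1 CPM in Wildtype replicate 1, while the other 5 Wildtype libraries lay between 10.2 and 10.8 CPM. *Hcn4* under the Gadd45a-KO label fell just short. The gap between its highest library, replicate 3, and the next was 0.618 of its range, against a limit of 0.625.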

How the results depend on the processing

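None of the 9 genes passed the threshold under any of 22 alternatives. *Hcn2*, *Pex5l*, *Kcnh1*, *Kcnh2*, *Kcnh3*, *Kcnh5* and *Kcnh7* kept their direction in all. The lowest adjusted p of a member in any alternative was 0.0537 from edgeR, for *Pex5l* without Gadd45a-KO replicate 4. The sign of *Hcn3*, near 0 throughout, turned without a count filter (0.00051), with at least 10 counts in every library (0.0011), with DESeq2 (0.00073), with the thalamic covariate (0.029) and without the libraries of high thalamic markers (0.040), and leaving out 1 library at a time gave -0.022 to 0.041. *Hcn4* turned to -0.14 with the covariate and to -0.17 without those libraries (0.16 to 0.83 leaving out 1 library). Over all genes, 430 were lower and 4 higher. The number lower was 667 with DESeq2, 251 with the length offset, 279 with that offset and the replicate block, 246 with the thalamic covariate, 199 without the libraries of high thalamic markers, where fewer samples entered, 726 at 5% FDR, and 239 to 467 leaving out 1 library. The number higher was 18 with DESeq2, 2 with the covariate and 20 at 5% FDR. The cause of these shifts was not tested. A block for replicate numbers gave 509 lower and 5 higher genes, with 0 members (lowest adjusted p = 0.0945 from edgeR, for *Kcnh7*). Libraries of the same number had correlations of -0.0761 to 0.262 in their deviations (mean 0.14, against -0.0279 between different numbers), over 0.1 in 5 of 6 pairs, and 4 of 12 libraries correlated best with their own number, so by the rule that every pair exceed 0.1 the numbers were not taken to pair the mice. *Kcng3* lost its call in 11 of 21 alternatives, 9 of which left out 1 library. Depth limits *Hcn4* and *Kcnh5*, with 27 to 151 and 73 to 134 reads per library.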
